A study of Mus musculus with 6 samples.

Results

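Itgb3, Sema7a and Cav1 are 3 of the 581 genes in the deposited tables of genes that differed between cultures on standard plates and on the Nanopore #3 scaffold. They were picked by name, with their plate and scaffold values known, as genes of cell adhesion and the plasma membrane. The difference between the surfaces therefore chose them, and their levels and fold changes are given as a description with no test. NIH-3T3 is a permanently growing fibroblast line that was derived from mouse embryos. Its cells, of wild-type genotype per the labels, were kept in DMEM with 10% fetal bovine serum and then cultured on plates (3 libraries) or on the scaffold (3 libraries). Nothing else differed between the groups according to the labels. The material of the scaffold, the time in culture and whether the libraries came from separate cultures are not stated in the labels. The spread between libraries, against which any p-value sets the difference of the groups, may therefore be technical.

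Integrins are paired alpha and beta chains that span the plasma membrane and link proteins of the surrounding matrix to the actin cytoskeleton. Itgb3 encodes the integrin beta 3 chain. It pairs with the alpha v chain in many adherent cells and with the alpha IIb chain in platelets, and it binds vitronectin, fibronectin and other ligands that carry an Arg-Gly-Asp motif. Sema7a encodes semaphorin 7A, a semaphorin held on the outer face of the membrane by a glycolipid anchor. Its known receptors are plexin C1 and integrins that contain the beta 1 chain. Cav1 encodes caveolin-1, the main coat protein of caveolae, the small pits of the plasma membrane that flatten when the membrane is stretched. Caveolin-1 lies on the inner face of the membrane and takes part in the uptake of integrins, so it is an adhesion-linked membrane protein and not itself an adhesion receptor.

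On the scaffold, the transcripts of the integrin chain and of the semaphorin were higher and that of caveolin-1 was lower, and for each of the 3 genes the plate and scaffold libraries did not overlap. Values are the authors' normalised read counts, that is, reads of a gene over the size factor of its library, with no correction for gene length. In bulk RNA, fewer cells with a transcript and less of it per cell cannot be told apart. Groups that did not overlap were the rule in this preselected table (98.6% of its genes), and an adjusted p under 0.05 in limma was reached by 99.7% of them, so neither is a result about these genes.

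Sema7a (ENSMUSG00000038264, plus strand, chromosome 9, 57940112 to 57962865, GRCm38 coordinates) had the largest difference of the 3. Its normalised read count was 1375, 1385 and 1447 in plate replicates 1 to 3 and 6536, 7203 and 7397 in scaffold replicates 1 to 3. Every scaffold library thus held more than 4 times the value of any plate library. The mean went from 1402 ± 38.9 to 7046 ± 452 (SD, n = 3 each), a 5.02-fold higher level and a log2 fold change of 2.33 (SE 0.0688). In the table this was rank 21 among the 189 genes with a higher mean log2 value on the scaffold, whose median log2 fold change was 1.39. By mean normalised reads over the 6 libraries, uncorrected for length, Sema7a held rank 16 of 581.

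Itgb3 (ENSMUSG00000020689, plus strand, chromosome 11, 104608000 to 104670476) had the fewest normalised reads of the 3, at rank 113. Its normalised read count was 198, 197 and 222 in the plate libraries and 499, 631 and 624 in the scaffold libraries. The lowest scaffold library, replicate 1, was still more than 2 times the highest plate library. The mean went from 205 ± 14.2 to 585 ± 74.4 (SD, n = 3 each), 2.85-fold higher, with a log2 fold change of 1.50 (SE 0.126). That placed the beta 3 chain close to the median of the higher genes, at rank 80 of 189.

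Cav1 (ENSMUSG00000007655, plus strand, chromosome 6, 17306335 to 17341452) was next to Sema7a in normalised reads, at rank 17 of 581, and its difference had the opposite sign. Its normalised read count was 5292, 5133 and 5198 in the plate libraries and 2878, 2653 and 2204 in the scaffold libraries. The plate values lay close together, and the scaffold values were all lower and more widely spread. The mean went from 5208 ± 80.2 to 2579 ± 343 (SD, n = 3 each), 2.02-fold lower, with a log2 fold change of -1.02 (SE 0.0931). Cav1 was among the smaller decreases in the table, at rank 372 of 392 lower genes, whose median log2 fold change was -1.38. The log2 ratio of its group means was -1.01, near the edge of the authors' selection, since no gene of the table had group means closer than 0.997 in log2 ratio.

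**Figure D1:**
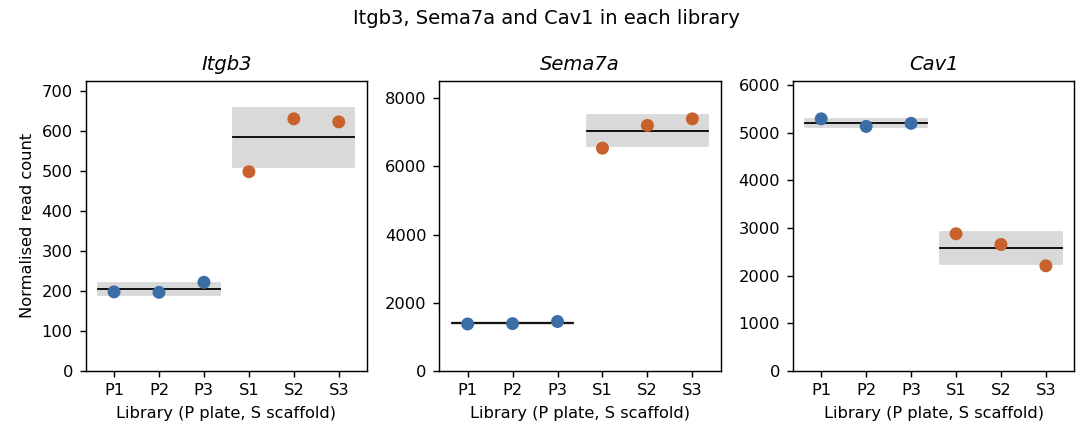
Normalised read counts of Itgb3, Sema7a and Cav1 (y axes, each from 0) in the 3 plate libraries (P1 to P3) and the 3 scaffold libraries (S1 to S3); points are libraries, lines are group means and grey bands are ± 1 SD (n = 3 each). Itgb3 goes from 205 to 585, Sema7a from 1402 to 7046 and Cav1 from 5208 to 2579, and no plate point reaches a scaffold point.

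**Figure D2:**
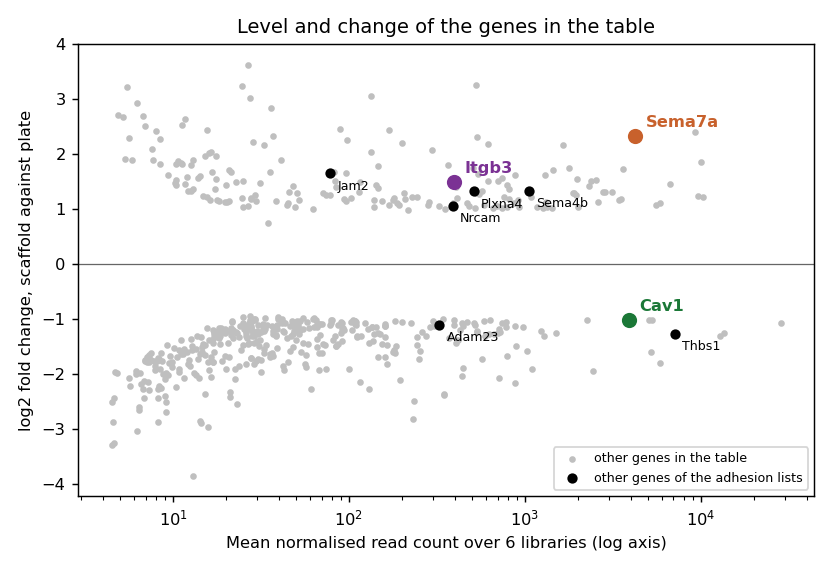
Each point is 1 of the 581 genes, with its mean normalised read count over the 6 libraries on a logarithmic x axis and its log2 fold change on the scaffold on the y axis; coloured points are the 3 genes and black points are other genes of the adhesion lists. Sema7a and Cav1 lie far to the right, at ranks 16 and 17 by normalised reads, uncorrected for length, with log2 fold changes of 2.33 and -1.02.

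Sema7a and Cav1 changed places in the order of the 3 transcripts between the surfaces. For levels of different genes, the normalised read counts were divided by the exon length of each gene (5901 bases for Itgb3, 3298 for Sema7a and 3444 for Cav1). On plates, the level per kb of exon was 1512 ± 23.3 for Cav1, 425 ± 11.8 for Sema7a and 34.8 ± 2.41 for Itgb3 (SD, n = 3 each). Caveolin-1 was the highest of the 3 in each plate library, at 3.56 times the mean level per kb of Sema7a. On the scaffold, the level per kb was 2136 ± 137 for Sema7a, 749 ± 99.6 for Cav1 and 99.1 ± 12.6 for Itgb3. There Sema7a was the highest in each library, at 2.85 times the mean level per kb of Cav1, and the lowest Sema7a library (1982) lay above the highest Cav1 library (836). Itgb3 stayed lowest in all 6 libraries, and its distance to Cav1 went from 43.5-fold on plates to 7.56-fold on the scaffold. No neighbours in either order overlapped in their library values.

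**Figure D3:**
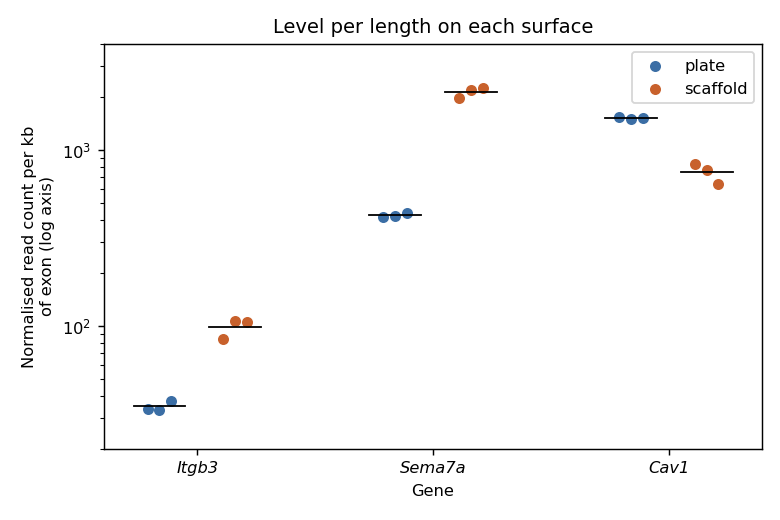
Normalised read count per kb of exon (logarithmic y axis) for each gene, with plate libraries in blue, scaffold libraries in orange and group means as lines (n = 3 each). Cav1 is highest on plates at 1512, and Sema7a is highest on the scaffold at 2136.

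Ratios of genes within 1 library do not depend on the factor by which that library was scaled, apart from the pseudocount of 1 added to both values. The log2 ratio of Itgb3 to Cav1 was -4.74, -4.70 and -4.54 in the plate libraries and -2.53, -2.07 and -1.82 in the scaffold libraries. The mean log2 ratio went from -4.66 ± 0.102 to -2.14 ± 0.358 (SD, n = 3 each), a shift of 2.52. The log2 ratio of Sema7a to Cav1 went from -1.89 ± 0.04998 to 1.46 ± 0.282, a shift of 3.35. The semaphorin also gained on the integrin chain: the log2 ratio of Sema7a to Itgb3 went from 2.77 ± 0.0591 to 3.60 ± 0.103, a shift of 0.83. In each of these ratios the plate and scaffold libraries were separate. For the ratios to Cav1 this follows from the opposite differences of the genes, whose groups did not overlap.

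**Figure D4:**
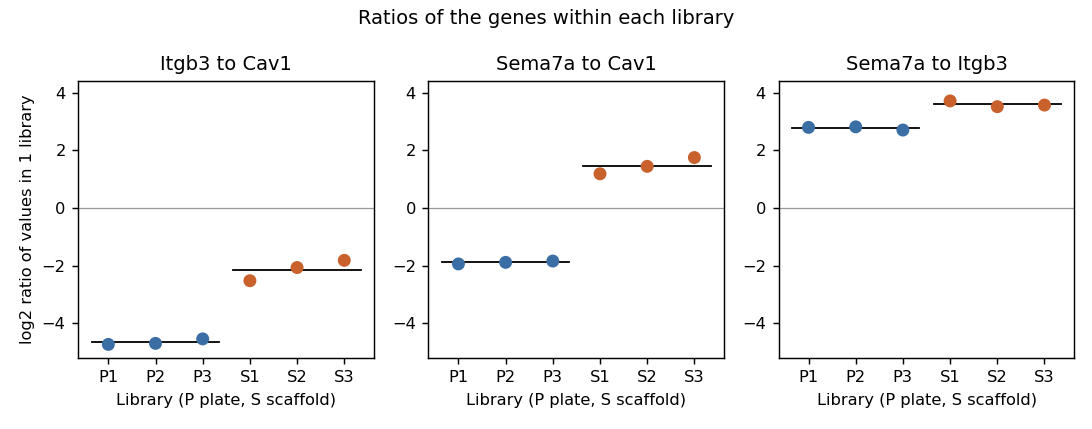
Log2 ratio of the values of a pair of genes within each library (y axis), for plate libraries in blue and scaffold libraries in orange, with group means as lines. The ratio of Itgb3 to Cav1 shifts by 2.52, that of Sema7a to Cav1 by 3.35 and that of Sema7a to Itgb3 by 0.83.

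The scaffold libraries differed more among themselves than the plate libraries did for each of these genes. On plates the SD was 6.94% of the mean for Itgb3, 2.78% for Sema7a and 1.54% for Cav1. Counting error alone, from the recovered reads of these libraries, would give 6.85%, 2.62% and 1.36%, so the plate spread was close to that of counting. On the scaffold the SD was 12.7%, 6.41% and 13.3% of the mean, against a counting error of 4.30%, 1.23% and 1.94% from scaffold replicates 1 and 2. Over the 150 genes of the table with the most normalised reads, which include these 3, the median SD was 4.66% of the mean on plates and 8.27% on the scaffold. Scaffold replicate 1 was the scaffold library closest to the plate mean for all 3 genes, with the lowest Itgb3 and Sema7a and the highest Cav1. The same library was closest for 331 of the 581 genes (57.0%). Without it, the log2 fold changes were 1.61 for Itgb3, 2.38 for Sema7a and -1.11 for Cav1.

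The size of the differences depended on how libraries were scaled, while their signs did not. Rescaling the libraries to equal medians over the table raised the median log2 difference over all genes by 0.74, and quantile normalisation raised it by 0.63. The log2 fold change of Cav1 was -0.26 (SE 0.110) with equal medians, against -1.02 (SE 0.0931) as deposited, and -1.59 after quantile normalisation. That of Sema7a was 3.09 and 1.75, and that of Itgb3 2.26 and 1.58. The median of all genes was itself -1.16 as deposited, -0.43 with equal medians and -0.53 after quantile normalisation. Relative to the median of the same setting, Cav1 lay 0.14 higher, 0.17 higher and 1.06 lower, in that order. Itgb3 and Sema7a lay above that median by 2.66 and 3.49 as deposited and by 2.11 and 2.28 after quantile normalisation. These rescalings saw the selected genes alone, and the deposited scaling was not checked against whole libraries.

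Few other genes of the adhesion lists were in the table. Of 236 symbols in 8 lists of adhesion and membrane genes it held 9, and the others were not analysed here. Besides the 3 genes, 6 were present, and in limma on log2(value + 1) with Benjamini-Hochberg adjustment 4 were higher and 2 lower on the scaffold. Among all genes of the table, calls were higher for 32.2% and lower for 67.5%. The 6 genes had a median log2 fold change of 1.19, against -1.16 over all genes. The lists do not cover every adhesion gene of the table, which also held Lama5 (lower) and Col17a1 (higher). The 6 genes therefore do not stand for adhesion genes as a whole. Because the authors selected every gene of the table on these same libraries, these calls are not independent evidence of a difference.

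On the integrin side, Itgb3 was the single gene present of 27 integrin subunit symbols. Of 25 symbols for extracellular ligands of beta 3 integrins, 2 were found by exact symbol and both fell. A ligand that the table holds under an older symbol, as it does Wisp1, would have been missed. Thbs1, the matricellular protein thrombospondin-1, had 9933, 9926 and 10508 in the plate libraries and 4944, 3813 and 3853 in the scaffold libraries. Adam23, a membrane protein whose human form binds integrin alpha v beta 3 through its disintegrin domain, had 445, 439 and 452 in plate replicates 1 to 3, against 254, 185 and 187 in the scaffold libraries. Its log2 fold change was -1.11 (SE 0.139, adjusted p = 7.24e-05). For both ligands, as for Cav1, scaffold replicate 1 held the highest of the scaffold values. None of the 54 symbols for integrin activation and focal adhesions was in the table, nor any of the 35 cadherin and catenin symbols.

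On the semaphorin side, 2 of 20 semaphorin symbols were present and both were higher. Beside Sema7a this was Sema4b, a transmembrane semaphorin, with 604, 573 and 616 in the plate libraries and 1393, 1526 and 1603 in the scaffold libraries. It rose 2.52-fold (log2 fold change 1.33, SE 0.0862, adjusted p = 9.71e-07). Of 11 plexin and neuropilin symbols the table held Plxna4, which encodes plexin A4, a receptor for class 3 and class 6 semaphorins and not the known plexin of semaphorin 7A. Plxna4 rose from 293 ± 22.9 to 734 ± 94.6 (SD, n = 3 each), or 2.51-fold (adjusted p = 9.95e-06). The libraries of the groups were separate for both genes.

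Of 14 symbols for the coat and neck of caveolae, Cav1 was the one present. Of 51 symbols for immunoglobulin-type, syndecan and other adhesion receptors, 2 were present and both rose. Jam2, a junctional adhesion molecule, had 34.0, 24.7 and 58.1 in the plate libraries and 132, 115 and 105 in the scaffold libraries, for a log2 difference of 1.65 (limma SE 0.285, adjusted p = 0.000516). Nrcam, a neuronal cell adhesion molecule of the L1 family, rose from 251 ± 15.1 to 526 ± 85.0 (2.10-fold, adjusted p = 8.51e-05). Jam2 had the fewest reads of the 6 genes and the widest relative spread on plates.

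The cell type could be checked only within the selected genes. Of 14 fibroblast marker symbols the table held Col1a1 and Col1a2, the chains of type I collagen, and both fell in limma. Col1a1 went from 18208 ± 572 to 7400 ± 1140 and Col1a2 from 38736 ± 128 to 18500 ± 2752 (SD, n = 3 each). The table held none of 11 macrophage and leukocyte, 9 platelet and osteoclast and 8 endothelial marker symbols, so these listed markers gave no value. The lists do not cover every gene known from leukocytes in the table, which also held Ccr1 and Mrc1 (higher) and Cd33 and Siglecg (lower). Of 8 epithelial marker symbols it held the keratin gene Krt8, at 13.3 to 17.5 on plates and 29.8 to 37.6 on the scaffold. The part of other cells in the levels of these genes was not tested.

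Some genes of the table followed the 3 genes almost point for point. Likeness was measured as the root mean square difference between log2(value + 1) profiles over the 6 libraries, each centred on its own mean, where 0 is an identical profile. For Itgb3 the 3 nearest were Plaur (0.0723), Ptges (0.0735) and Havcr2 (0.0874), against a median of 1.34. This median and those below are over all other genes with an established symbol. Plaur encodes the urokinase receptor, a glycolipid-anchored protein that also binds vitronectin, and Ptges an inducible prostaglandin E synthase. Havcr2 encodes the immune receptor TIM-3. For Sema7a the nearest were Angptl4 (0.0561), a secreted inhibitor of lipoprotein lipase, Kcnh2 (0.0692), a potassium channel subunit, and Dusp5 (0.103), a phosphatase of the kinase ERK, against a median of 1.74. For Cav1 the nearest were Casp4 (0.0457), an inflammatory caspase, Mmp19 (0.0532), a matrix metalloproteinase, and S1pr3 (0.0539), a receptor for sphingosine 1-phosphate, against a median of 0.533. S1pr3 had 2970, 3068 and 3066 in the plate libraries, and 1675, 1473 and 1367 in the scaffold libraries. As with Cav1, scaffold replicate 1 was the highest of its scaffold libraries and replicate 3 the lowest. With 6 libraries in 2 groups, this likeness reflects mainly the size of the difference between the surfaces. Equal medians over the table ended the limma calls of Casp4 (adjusted p = 0.127) and Mmp19 (adjusted p = 0.0535).

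**Figure D5:**
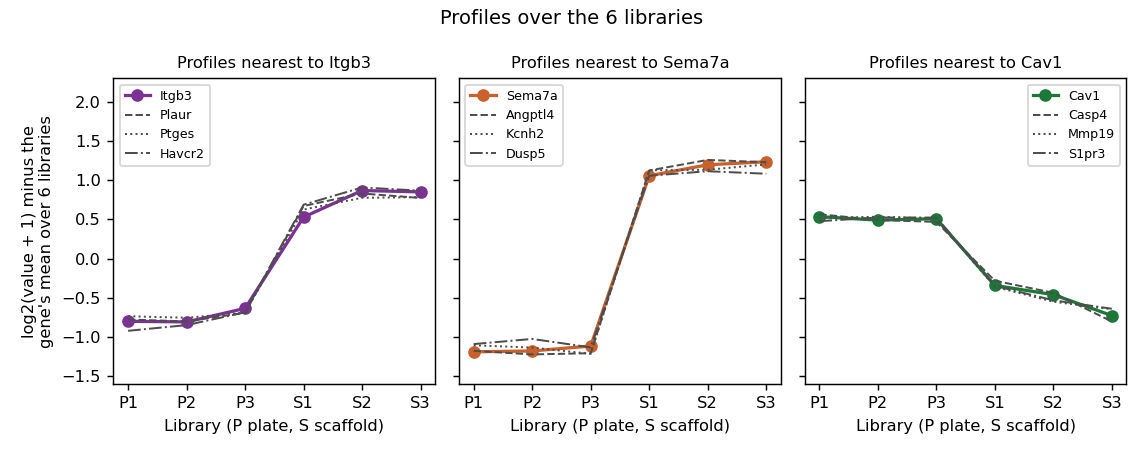
Log2(value + 1) minus the mean over the 6 libraries (y axis) for each gene (coloured) and for the 3 genes with the nearest profile (dashed and dotted lines); P are plate and S scaffold libraries, and lines join libraries only to show which values belong to 1 gene. The nearest genes lie within 0.0457 to 0.103 of their gene by root mean square difference.

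Each of the 3 genes was annotated as protein coding, and no annotated exon of another gene overlapped its exons in GENCODE M21. Cav1 lies inside the span of Gm15581, an antisense transcript on the minus strand (17206823 to 17385604), and the exons of the pair share 0 bases. For Sema7a and Cav1 the 250 bases before the start site that the table gives are shown, because a promoter sequence was available for these 2 genes and not for Itgb3. For Cav1, 2 promoter windows were available, and only the 1 at this start site was read. The sequences are from RefSeq (GRCm38.p6, plus strand) and cover chr9:57939862-57940111 and chr6:17306085-17306334. Capitals mark matches to the GC box GGGCGG and, in Cav1, also to the TATA box letters TATAAA, on either strand.
Sema7a: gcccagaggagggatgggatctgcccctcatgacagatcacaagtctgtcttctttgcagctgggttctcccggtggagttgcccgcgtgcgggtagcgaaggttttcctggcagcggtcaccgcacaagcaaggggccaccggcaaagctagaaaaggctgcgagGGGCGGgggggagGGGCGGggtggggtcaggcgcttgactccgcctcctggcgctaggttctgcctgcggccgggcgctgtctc
Cav1: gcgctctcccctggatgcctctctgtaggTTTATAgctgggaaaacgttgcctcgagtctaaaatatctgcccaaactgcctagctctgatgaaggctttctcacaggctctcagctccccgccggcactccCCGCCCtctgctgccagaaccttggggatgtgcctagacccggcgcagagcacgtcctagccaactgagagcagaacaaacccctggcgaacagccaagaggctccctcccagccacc
The Sema7a window held 2 GC boxes on the plus strand, which began 84 and 71 bases before the start site. The Cav1 window held 1 GC box on the minus strand, 118 bases before the start site, and 1 TATA box match, also on the minus strand, 221 bases before it. Of 32817 promoter windows of the same length, 32.7% held a GC box and 12.4% the TATA box letters on either strand. G and C made up 66.4% of the Sema7a window and 59.6% of the Cav1 window, against a median of 52.4%. Neither window held the CCAAT box CCAAT (33.8% of windows), the AP-1 site TGANTCA (6.75%), the cyclic AMP response element TGACGTCA (1.55%), the EGR site GCGNGGGCG (4.70%) or the CArG box (1.47%). These counts describe letters in these windows and say nothing about binding of a factor.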

How the data were processed

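RNA of 6 NIH-3T3 libraries was extracted with TRIzol and prepared with the NEBNext Ultra kit, per the labels' protocols. The submitters' processing notes name fastp, HISAT2, HTSeq, DESeq2 and the build GRCm39; their versions and settings are not given in the sources used. The values the authors deposited are a signal, reads divided by a size factor per library, although the table names say FPKM: in each library 100% were whole multiples of 1 step, within 0.01 read. Reads were recovered for 5 libraries (264178 to 293198 over the 581 genes). Scaffold replicate 3, whose step lay close to 1, entered no count test. Whole library totals were not analysed here.

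Groups and replicate numbers came from the sample titles. The members and lists were chosen with earlier results of these data known. Named genes were the members, list genes present in the table, and the 3 nearest profiles per member among established symbols. The fit was limma 3.58.1 (R 4.3.3) on log2(value + 1) over all genes with a mean of at least 0.5, with an intensity trend, two-sided, Benjamini-Hochberg adjusted, threshold 0.05. Fits were tested on simulated data. Alternatives were other pseudocounts (0.1, 0.01), filters, scalings, a replicate block, no trend, leaving out each library, and edgeR 4.0.16 and DESeq2 1.42.0 on recovered reads. Exons came from GENCODE M21 (GRCm38), where all 581 identifiers were found and 551 had the coordinates of the table, the 3 genes included. Promoter sequences were available for 2 of the 3 genes.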

Additional observations from a re-analysis of the deposited data

How the results depend on the processing

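The signs of Itgb3, Sema7a and Cav1 held under every alternative run. The log2 fold changes moved beyond the spread between replicates under rescaling. With equal medians they moved to 2.26 for Itgb3, 3.09 for Sema7a and -0.26 (SE 0.110) for Cav1. With quantile normalisation they moved to 1.75 for Sema7a and -1.59 for Cav1. Quantile normalisation took the shift in the within-library log2 ratio of Itgb3 to Cav1 from 2.52 to 3.16. That method sets values by their rank in a library and so does not keep ratios within it. The cause of the moves in fold change was not tested. Leaving out 1 library gave 1.44 to 1.61 for Itgb3, 2.29 to 2.38 for Sema7a, -1.11 to -0.91 for Cav1 and 2.36 to 2.72 for the ratio shift. Of all 581 genes, 579 were called (187 higher, 392 lower), and 573 to 579 without 1 library (187 to 188 higher, 386 to 391 lower). Genes called lower numbered 208 with equal medians and 210 with quantile normalisation, which took the share of lower calls from 67.7% to 52.4% and 52.9%. On recovered reads edgeR called 580 genes and DESeq2 554, and edgeR gave 1.46 for Itgb3, 2.29 for Sema7a and -0.91 for Cav1. The replicate block gave 580 calls. In this balanced design it cannot change the fold changes (1.50, 2.33 and -1.02) or the ratio shift (2.52). Leaving out the trend or changing the filter cannot change these fold changes either. Deviations of same-numbered plate and scaffold libraries correlated at -0.03, 0.07 and 0.06 across genes, so the numbers were not taken to pair the libraries. The lost call of Col1a2 under quantile normalisation is fixed by the method, because this gene ranks first in each of the 6 libraries. The lowest recovered count of the 3 genes was 191 reads (Itgb3, plate replicate 2), and on plates their spread was close to that of counting.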

Other observations

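A search of the gene descriptions in the table for other adhesion and cell surface families, made after the values were seen, found 8 more genes, of which 3 were higher and 5 lower on the scaffold in limma. These shares lie near those of all genes in the table, 32.2% higher and 67.5% lower. Ceacam1, a homophilic adhesion molecule of the immunoglobulin family, had 58.8, 62.8 and 73.3 in the plate libraries and 214, 198 and 270 in the scaffold libraries. Flrt3, a leucine-rich membrane protein that binds latrophilin and Unc5 receptors, rose from 118 ± 6.18 to 291 ± 42.3 (SD, n = 3 each). The tetraspanin Tspan8 rose from 8.81 ± 3.42 to 26.3 ± 0.757. Among the lower genes were Boc, a hedgehog co-receptor of the immunoglobulin family, which fell from 36.2 ± 8.03 to 8.85 ± 1.87, and the ephrin receptor Epha4, which fell from 80.8 ± 6.43 to 26.3 ± 4.83. The cadherin-family gene Dchs2 fell from 25.4 ± 8.32 to 8.52 ± 1.35, and the claudin genes Cldn9 and Cldn34c1 fell from 45.3 ± 3.99 to 17.1 ± 4.83 and from 13.2 ± 2.53 to 3.80 ± 1.68. The calls come from genes the authors had selected on the same libraries.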
